A study of Mesostigma viride with 16 samples.

Results

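The genes described here are those of the unicellular alga *Mesostigma viride* (strain NIES-296) whose transcripts were lower after a day in darkness but stayed near the untreated level in cold and under high light. They were selected on 4 readings of the same RNA-seq libraries. The mean FPKM of the untreated libraries had to be at least 1, the untreated libraries had to lie within 1.5-fold of each other, darkness had to be at least 2-fold below the untreated mean, and cold and high light each had to lie within 2-fold of it. FPKM is the number of sequenced fragments of a gene scaled by its transcript length and by the mapped fragments of the library, and 0.1 was added to each mean before a ratio was taken. Of 24431 genes in the files 197 met these numbers, and 8 of them were then set aside because they stand in the study's lists of cell division and cell wall genes, transcription factors, phytohormone genes, epigenetic genes or photosynthesis genes. The remaining 189 genes are the darkness-reduced genes of this text.

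All cultures were 24 days old and were kept in medium C at 23 °C and pH 7.5, with 50 µmol photons per square metre per second in a cycle of 10 h light and 14 h dark, before a treatment of 24 h. Cells were then left dark, lit at 400 µmol photons (high light), chilled to 12 °C (cold), warmed to 32 °C (high temperature), brought to pH 6.0 with Tris-HCl (low pH) or brought to pH 9.0 with NaOH (high pH). Control 1 was untreated, and Control 2 was untreated apart from an equal volume of added medium C, which matches the additions of the pH treatments. Each treatment and Control 2 had 2 libraries, whereas Control 1 entered with 1 library (replicate 2), the other not being analysed here, so 15 libraries were used. The study calls its replicates biological, the labels number them without saying whether they came from separate cultures, and the point of the light cycle at harvest is not given in the sources used here. The p-values therefore measure the spread between these libraries.

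In green algae and plants, light sets both the supply of energy and a large part of the transcript pool. Photosynthesis, pigment and protein synthesis and cell division depend on it, and in algae grown in light-dark cycles many transcripts peak at a fixed phase of the day. A day of continuous darkness removes photosynthetic energy and the light signal together. The functional terms used here come from the study's list of terms specific to charophyte or chlorophyte algae. That list names 94 of the 24431 genes, and 3 of the 189 are among them. The other genes are known here by identifier only, since no wider annotation was used. They are therefore described by their levels and responses.

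The darkness-reduced genes were transcripts of middle abundance in untreated cells. Their untreated mean had a median of 14.9 FPKM (quartiles 7.07 and 33.1, range 1.07 to 1551 FPKM), with 38 genes under 5 FPKM, 122 from 5 to 50 FPKM and 29 at 50 FPKM or more. Together they held 1.30 to 1.497% of the summed FPKM in the untreated libraries and 0.495 to 0.496% in the darkness libraries. The summed FPKM of all genes was 578174 to 683704 per library. The depth behind a value is unknown, because FPKM does not keep the number of fragments. FPKM is a share of the library, so a loss of a transcript per cell and a gain of other transcripts cannot be told apart.

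In darkness most of these genes were only moderately lower, as values that chose them and therefore a description. The median reduction was 2.33-fold and the largest 8.12-fold, with 163 genes between 2- and 3-fold lower, 26 at least 3-fold lower and 7 at least 4-fold lower. The median FPKM over the 189 genes was 14.0 in Control 1, 15.3 and 14.5 in Control 2, and 5.53 and 5.61 in darkness. Both darkness libraries lay below every untreated library in 188 genes, and in 158 genes each darkness library on its own was at least 2-fold below the untreated mean. The darkness replicates differed by a median of 0.0811 on the log2 scale over the genes.

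**Figure D1:**
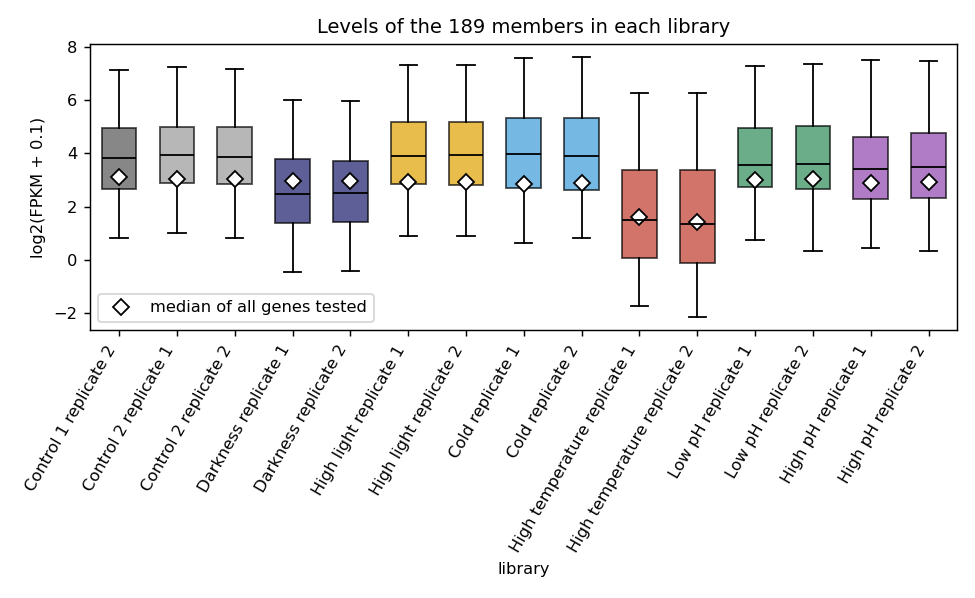
Levels of the 189 darkness-reduced genes in each of the 15 libraries as log2(FPKM + 0.1); boxes span the quartiles with the median as a line, whiskers run from the 5th to the 95th percentile, and diamonds give the median of the 14297 genes tested. The boxes are lowest in the 2 high temperature libraries, where the diamonds are low too, and next lowest in the 2 darkness libraries, where the diamonds are not.

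For 3 of the 189 genes the darkness mean rests on replicates that differed by more than 2-fold. Mv13139-RA was listed at 0 in darkness replicate 1 and had 1.17 FPKM in replicate 2, which is within its untreated range of 1.17 to 1.503 FPKM, so its groups overlap. Mv06525-RA was listed at 0 and 2.27 FPKM in darkness, against 2.69 to 2.75 FPKM in untreated cells. Mv10174-RA had 14.5 and 2.49 FPKM in darkness against 25.6 to 29.6 FPKM in untreated cells, and it also swung between 31.8 and 1.59 FPKM in cold and between 2.47 and 35.6 FPKM at high pH. An exact 0 in such a file can be a failed estimate, and 6 of the 189 genes were listed at 0 in at least 1 library. Some genes could also share reads. Mv04957-RA and Mv16171-RA had values within 0.1 on the log2 scale in all 15 libraries, and so did Mv03152-RA and Mv04314-RA. No other gene in the files came that close to a darkness-reduced gene. Whether these 2 pairs are separate measurements is uncertain.

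The gene with the deepest fall in darkness was also among the most abundant. Mv05207-RA had 345 FPKM in Control 1, 418 and 403 FPKM in Control 2, and 47.0 and 48.6 FPKM in darkness. High light left it at 324 and 322 FPKM and cold at 241 and 228 FPKM, so darkness stood apart from all of these. Its mean was 8.12-fold below the untreated mean in darkness. At high temperature it had 66.5 and 67.4 FPKM, also below every untreated library, and a log2 change from Control 1 of -2.36 (SE 0.0508, limma adjusted p = 1.45e-11).

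Mv16014-RA went from 3.94 to 5.44 FPKM in the untreated libraries to 0.596 and 0.649 FPKM in darkness. Mv21457-RA had 114 to 117 FPKM in untreated cells and 19.2 and 18.9 FPKM in darkness, with 170 and 162 FPKM in cold. Mv06569-RA had 14.0 to 17.2 FPKM in untreated cells and 2.45 and 2.70 FPKM in darkness. In each of these 3 genes the darkness libraries lay far below the untreated ones, and the high temperature libraries were also low: 0.381 and 0.203 FPKM for Mv16014-RA, 23.0 and 21.7 FPKM for Mv21457-RA, and 0.947 and 1.02 FPKM for Mv06569-RA. Mv00281-RA had 28.9 to 33.2 FPKM in untreated cells and 5.53 and 5.62 FPKM in darkness. Its high temperature libraries, at 16.7 and 17.2 FPKM, stayed well above its darkness libraries. Mv09575-RA had 8.35 to 10.0 FPKM in untreated cells, 2.05 and 1.91 FPKM in darkness, and 7.65 and 5.59 FPKM at high temperature. Mv18386-RA had 6.85 to 10.0 FPKM in untreated cells and 1.92 and 2.01 FPKM in darkness. The remaining genes of the 10 lowest were Mv25582-RA, Mv13911-RA and Mv00987-RA, with log2 ratios of darkness to the untreated mean of -1.90, -1.88 and -1.85.

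The most abundant of the darkness-reduced genes did not share 1 pattern outside darkness. Mv16676-RA, the highest, had 1314 FPKM in Control 1, 1699 and 1640 FPKM in Control 2, and 457 and 458 FPKM in darkness. Its highest levels were at low pH, with 2552 and 2518 FPKM, above every other library. Mv15176-RA had a similar order at a lower level, with 159 to 226 FPKM in untreated cells, 67.9 and 65.4 FPKM in darkness and 381 and 384 FPKM at low pH. Mv00987-RA was instead highest in cold and under high light, with 910 and 877 FPKM in cold and 724 and 752 FPKM under high light, against 432 to 524 FPKM in untreated cells and 132 and 127 FPKM in darkness. Mv00674-RA, Mv17748-RA, Mv02767-RA and Mv20411-RA had untreated means of 580, 528, 204 and 193 FPKM and were lower both in darkness (log2 ratios to the untreated mean -1.09, -1.24, -1.18 and -1.17) and at high temperature (-2.14, -2.59, -2.52 and -2.18). Mv00541-RA and Mv11101-RA complete the 10 most abundant and rose at high temperature.

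**Figure D2:**
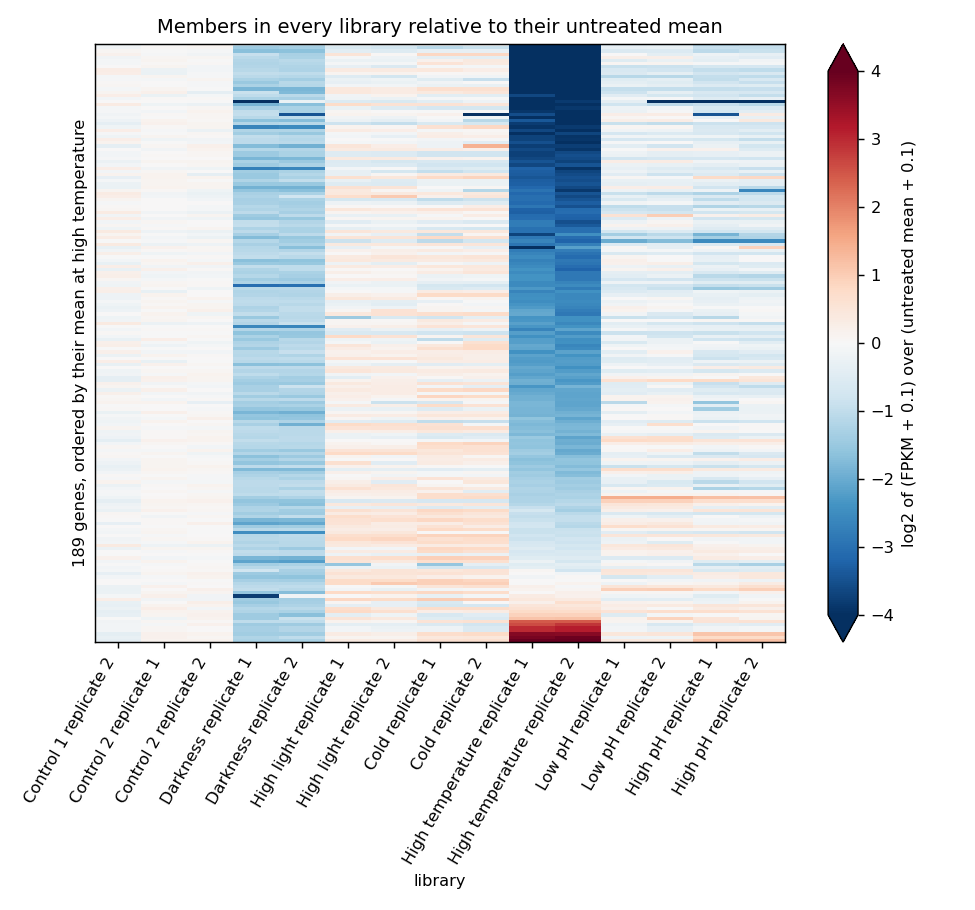
The 189 darkness-reduced genes (rows, ordered by their mean at high temperature) in the 15 libraries (columns), as the log2 ratio of each library to the untreated mean, with colours saturating at -4 and 4. The darkness columns are blue by construction, the high temperature columns are blue in most rows and red in the lowest ones, and isolated dark cells mark genes whose replicates disagreed.

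Within the bounds set by the rule, high light and cold were more often slightly above than below the untreated mean. Under high light 109 of the 189 genes were above it and 80 below, with a median log2 ratio of 0.10, and both high light libraries lay above every untreated library in 78 genes and below in 48. In cold 111 genes were above and 78 below, with a median of 0.16, and both libraries lay above every untreated library in 86 genes and below in 50. The medians over all genes tested were -0.11 under high light and -0.18 in cold. The genes that met the rest of the rule without the darkness threshold had medians of -0.14 and -0.15, and the 98 genes selected by the mirror rule (at least 2-fold higher in darkness) had medians of -0.13 and -0.41. These values come from the libraries that chose the genes and are given without a test. The counts of genes above or below the untreated level were not made over all genes.

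The rule counts only cold and high light as other conditions, and at high temperature most of the genes were not at the untreated level. At least 2-fold below the untreated mean at high temperature were 148 of the 189 genes (78.3%). Another 8 (4.23%) were at least 2-fold above it and 33 were within 2-fold. Of all genes tested, 54.5% were at least 2-fold below and 7.56% at least 2-fold above. Of the genes that met the rest of the rule, these shares were 62.0% and 3.72%. High temperature was the lowest of the 8 condition means in 139 genes, darkness in 49 and another condition in 1. Both high temperature libraries were below all other libraries in 133 genes, and both darkness libraries in 44. By mean levels, 32 of the 189 genes stayed within 2-fold of the untreated mean at high temperature, low pH and high pH as well. This count, and those of the lowest condition and lowest libraries, were not made over all genes. In the test against Control 1 described next, 27 of the 32 had no call at high temperature, 3 fell (Mv22709-RA, Mv07362-RA and Mv13906-RA) and 2 rose (Mv21888-RA and Mv21487-RA). Few calls were set in advance, since the same high temperature values picked the 32 and a call needs a 2-fold change. Among these 32 were Mv00281-RA, Mv09575-RA, Mv18386-RA, Mv00987-RA and Mv19321-RA.

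The first comparison whose log2 change left out the darkness, cold and high light values was high temperature with Control 1. The single Control 1 library was used by the rule. The spread behind the p-values came from all replicated conditions, darkness, cold and high light among them. After 24 h at 32 °C, 145 of the 189 darkness-reduced genes fell (76.7%), 10 rose (5.29%) and 34 were not called, where a call needed an adjusted p of at most 0.01 and a change of at least 2-fold. The fall was common to much of the transcript pool, since 55.3% of the 14297 genes tested fell and 6.83% rose. The median log2 change was -2.27 over the darkness-reduced genes, -1.29 over all genes tested and -1.48 over the 9361 genes that met the rest of the rule, of which 62.1% fell. The genes selected by the mirror rule had a median of -0.12, with 23 falls and 21 rises among 98. The test was limma on log2(FPKM + 0.1) with 1 mean per condition over all libraries, and the single Control 1 library was taken to vary as the replicates of the other conditions do. The size of the shift depended on the scaling of the libraries. With libraries scaled to the same upper quartile, 109 of the 189 genes fell and 19 rose, against 34.1% and 17.0% of all genes. With the median of gene ratios the counts were 99 and 21, against 29.7% and 21.0%, and with quantile normalization 86 and 17, against 23.3% and 21.8%. The median of the darkness-reduced genes under these 3 scalings was -1.38, -1.16 and -0.86, and that of all genes -0.38, -0.16 and -0.02.

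**Figure D3:**
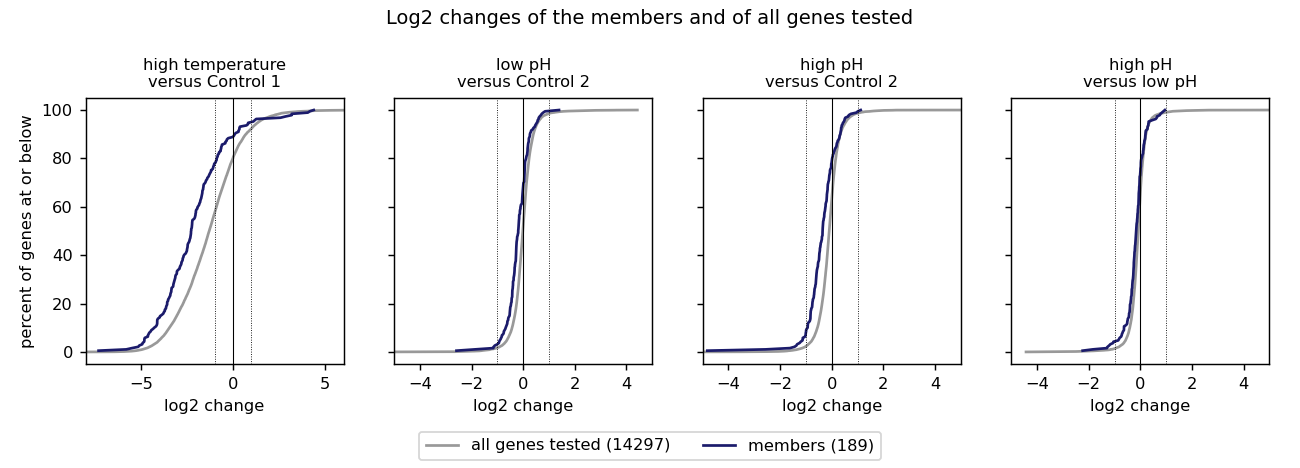
Cumulative percent of genes at or below a log2 change on the log2(FPKM + 0.1) scale, for the 189 darkness-reduced genes (blue) and the 14297 genes tested (grey) in the 4 tests; dotted lines mark a 2-fold change. The blue line lies to the left of the grey line at high temperature, with medians of -2.27 and -1.29, and the lines are much closer in the 3 pH panels.

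Among the 145 falls at high temperature the median log2 change was -2.68, and 108, 61, 24 and 5 genes had changes at or below -2, -3, -4 and -5. The deepest was Mv25517-RA, which had 21.4 FPKM in Control 1 and 0.0225 and 0.0532 FPKM at high temperature. Both high temperature values were smaller than the 0.1 added to them, so the fitted log2 change of -7.29 (SE 0.155, adjusted p = 1.37e-11) depends on that addition. The same gene had 12.4 and 11.3 FPKM in darkness, only just 2-fold below its untreated mean of 23.9 FPKM. Mv14236-RA had 30.7 FPKM in Control 1 and 0.519 and 0.398 FPKM at high temperature, a log2 change of -5.79 (SE 0.124, adjusted p = 1.40e-11). Mv09574-RA had 137 FPKM in Control 1 and 3.63 and 2.42 FPKM at high temperature, a log2 change of -5.48 (SE 0.165, adjusted p = 1.24e-10). In all 3 genes the high temperature libraries lay below every other library.

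The 10 genes that rose at high temperature were 5.29% of the darkness-reduced genes, against 6.83% of all genes tested. Their lower level in darkness was set by the rule. With Control 2 in place of the single Control 1 library as the reference, 8 genes rose. Mv11101-RA had 230 FPKM in Control 1, 115 and 116 FPKM in darkness, and 3845 and 3788 FPKM at high temperature, a log2 change of 4.05 (SE 0.0527, adjusted p = 6.71e-13). Mv21880-RA had 97.4 FPKM in Control 1, 51.4 and 52.1 FPKM in darkness, and 2058 and 1982 FPKM at high temperature, a log2 change of 4.37 (SE 0.0451, adjusted p = 1.95e-13). These genes ran in parallel, with Mv11101-RA at 1.87 to 2.60 times the FPKM of Mv21880-RA in all 15 libraries. Mv12814-RA had 3.01 FPKM in Control 1, 1.58 and 1.79 FPKM in darkness, and 53.1 and 58.1 FPKM at high temperature, a log2 change of 4.16 (SE 0.108, adjusted p = 4.39e-11). For each of these 3 genes the darkness libraries were the lowest of all and the high temperature libraries the highest. Mv00541-RA had 285 FPKM in Control 1, 153 and 154 FPKM in darkness, and 1688 and 1709 FPKM at high temperature, a log2 change of 2.57. The near-identical genes Mv16171-RA and Mv04957-RA had log2 changes of 3.18 each, and if they are 1 measurement the group holds 9. The other risers, Mv20557-RA, Mv21888-RA, Mv14302-RA and Mv21487-RA, had log2 changes of 2.85, 1.254, 1.17 and 1.10. In the high temperature libraries the 10 risers held 75.1 and 75.4% of the summed FPKM of the 189 genes, against 8.26 to 9.83% in untreated cells and 10.6 and 10.8% in darkness. The 189 genes together held 1.62 and 1.51% of all FPKM at high temperature, no less than in untreated cells, but without the risers they held 0.403 and 0.372%, against 1.19 to 1.35% in untreated cells. The risers were picked by their rise in these libraries, so the direction of these shifts follows from the pick. Shares with and without risers were not made over all genes. Over the 10 genes the untreated mean ran from 1.32 to 311 FPKM and the log2 ratio in darkness from -1.55 to -1.02.

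The 34 genes with no call at high temperature had a median log2 ratio in darkness of -1.30, close to the -1.20 of the genes that fell and the -1.25 of those that rose. No call did not mean no change: 16 of the 34 were lower and 4 higher with an adjusted p of at most 0.01 but by less than 2-fold, 2 were more than 2-fold lower without passing that p, and 12 met neither threshold. Mv15176-RA is of the first kind, with a log2 change of -0.83 (adjusted p = 5.18e-08). The 2 large ones were Mv06525-RA (-4.34, SE 1.74, adjusted p = 0.0371) and Mv10174-RA (-4.14, SE 1.70, adjusted p = 0.0417), both among the genes with discordant replicates. The median of the 34 was 0.41 under high light and 0.53 in cold, where the genes that fell at high temperature had medians of 0.06 and 0.12. Mv19321-RA, whose only term in the study's list is intracellular part, is an example with nearly the same level in Control 1 and at high temperature. It had 50.5 FPKM in Control 1, 50.8 and 49.6 FPKM at high temperature, and 19.6 and 19.4 FPKM in darkness. Its log2 change at high temperature was -0.01 (SE 0.0697, adjusted p = 0.926), and its levels under high light (85.4 and 83.2 FPKM) and in cold (97.0 and 91.4 FPKM) were above every untreated library.

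**Figure D4:**
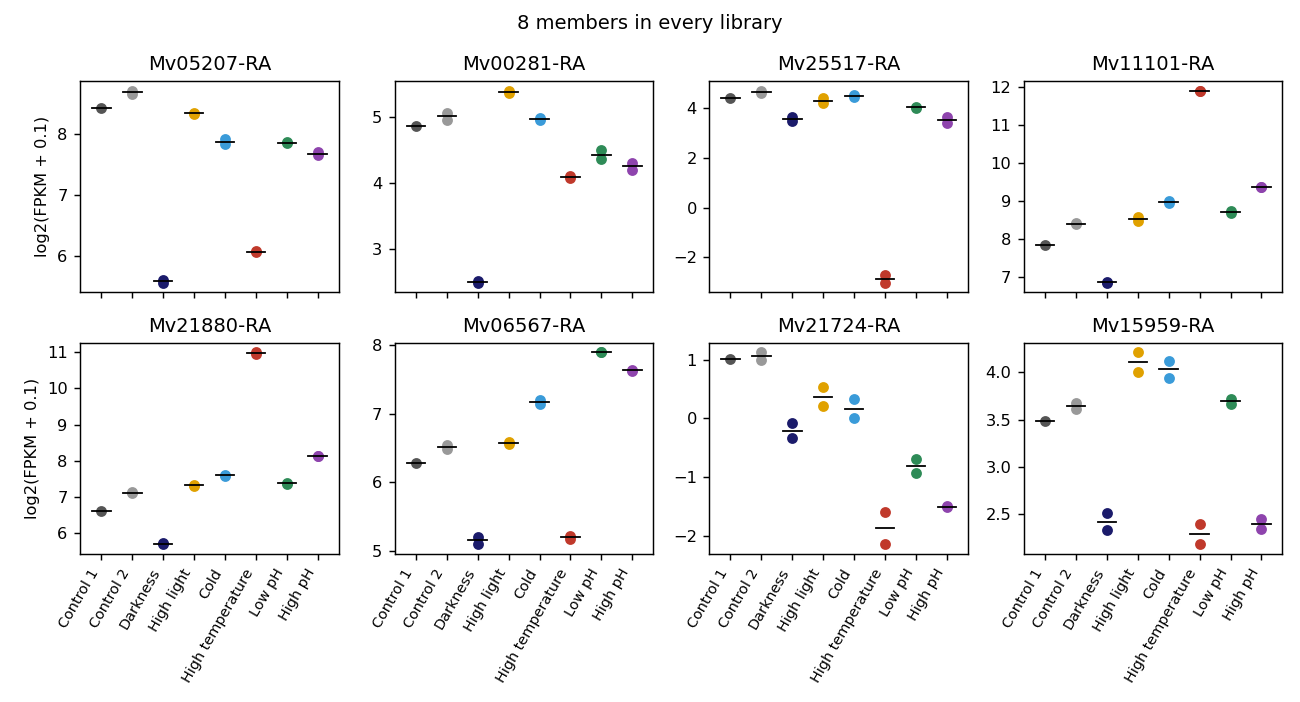
Log2(FPKM + 0.1) of 8 darkness-reduced genes in the 8 conditions; points are libraries and bars are means of the log2 values. Mv05207-RA and Mv25517-RA were low in darkness and at high temperature, Mv11101-RA and Mv21880-RA were lowest in darkness and highest at high temperature, and Mv06567-RA was highest at low pH.

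The other 2 genes with functional terms fell at high temperature. Mv21836-RA, with terms for protein metabolic process, the vacuolar and plasma membranes, the mitochondrion, the Golgi apparatus and the endoplasmic reticulum, had 23.1 FPKM in Control 1, 10.6 and 8.18 FPKM in darkness, and 0.605 and 0.514 FPKM at high temperature. The high temperature libraries were far below the rest, with a log2 change of -5.14 (SE 0.217, adjusted p = 1.48e-09). Mv15394-RA, with terms for the chloroplast, hydrolase activity and zinc ion binding, had 9.15 FPKM in Control 1, 4.69 and 5.38 FPKM in darkness, and 2.42 and 1.47 FPKM at high temperature, a log2 change of -2.22 (SE 0.274, adjusted p = 1.38e-05). Mv15394-RA also carried a term for the cytosol. In the study's list of terms, 25 genes at 1 FPKM or more had a chloroplast, plastid, thylakoid or photosynthesis term. Mv15394-RA was the only darkness-reduced gene among them (4%). Of all genes at 1 FPKM or more, 1.55% met the numbers of the rule. The list is not a catalogue of the plastid genes of the alga.

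At low pH 4 of the 189 genes fell (2.12%) and 1 rose (0.529%), against 0.902% and 0.664% of all genes tested. The median log2 change was -0.19 over the darkness-reduced genes and -0.02 over all genes, and the comparison was with Control 2, whose libraries the rule used. Mv21724-RA had 1.89 and 2.09 FPKM in Control 2 and 0.425 and 0.516 FPKM at low pH, a log2 change of -1.88 (SE 0.236, adjusted p = 0.000239). Mv20761-RA had 27.7 and 25.2 FPKM in Control 2 and 11.9 and 11.99 FPKM at low pH, a log2 change of -1.14 (SE 0.0837, adjusted p = 5.55e-06). Mv08523-RA had 20.5 and 19.6 FPKM in Control 2 and 9.61 and 9.0001 FPKM at low pH, a log2 change of -1.10 (SE 0.144, adjusted p = 0.000321). The groups did not overlap in any of these 3 genes. The fourth, Mv16345-RA, had 54.4 and 50.2 FPKM in Control 2 and 26.0 and 26.1 FPKM at low pH, a log2 change of -1.001. The riser was Mv06567-RA, with 89.0 and 93.5 FPKM in Control 2 and 239 and 239 FPKM at low pH, a log2 change of 1.39 (SE 0.0478, adjusted p = 2.57e-08). It had 34.0 and 36.7 FPKM in darkness and 37.1 and 36.0 FPKM at high temperature, so its low pH libraries were the highest of all. Its change at high temperature, -1.08, turned to 0.09 when libraries were scaled by the median of gene ratios.

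At high pH 10 of the 189 genes fell (5.29%) and 2 rose (1.06%), against 1.46% and 0.79% of all genes tested and 0.470% and 0.310% of the genes that met the rest of the rule. The median log2 change was -0.36, against -0.10 over all genes tested, and 146 of the 189 genes had a high pH mean below the untreated mean. That last count was not made over all genes. The median log2 ratio to the untreated mean was -0.31 over the 189 genes and -0.14 over all genes tested. Scaling to the upper quartile or by the median of gene ratios left 5 falls. The share of all genes that fell at high pH was not counted under these scalings. The 2 pH comparisons share the Control 2 libraries. Mv21724-RA had 0.252 and 0.254 FPKM at high pH, a log2 change of -2.57 (SE 0.236, adjusted p = 2.22e-05), below both its low pH libraries. Mv14154-RA had 7.54 and 6.74 FPKM in Control 2 and 2.61 and 2.78 FPKM at high pH, a log2 change of -1.37 (SE 0.153, adjusted p = 8.37e-05). Mv15959-RA had 12.1 and 12.7 FPKM in Control 2 and 4.98 and 5.38 FPKM at high pH, a log2 change of -1.25 (SE 0.109, adjusted p = 1.59e-05). In none of the 3 genes did the groups overlap. Mv06567-RA rose, with 200 and 197 FPKM at high pH and a log2 change of 1.12, and Mv21880-RA rose from 139 and 138 FPKM in Control 2 to 279 and 281 FPKM, a log2 change of 1.01. Mv05207-RA, the gene with the deepest fall in darkness, had 201 and 208 FPKM at high pH, a log2 change of -1.01. Without Control 2 replicate 1 or without high pH replicate 1 this change was -0.98 and no longer reached 2-fold. The calls of Mv14236-RA, Mv20761-RA and Mv25582-RA at high pH, at -1.01, -1.01 and -1.03, were likewise lost in 6, 6 and 5 of 15 alternatives. Mv14236-RA lost its call without Control 2 replicate 2 (-0.99) or high pH replicate 2 (-0.99), Mv20761-RA without Control 2 replicate 1 (-0.95) or high pH replicate 2 (-0.97), and Mv25582-RA without high pH replicate 2 (-0.89). Mv25517-RA lost its high pH call without high pH replicate 1 (-0.99, from -1.12).

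High pH against low pH is the comparison in which neither side was used to choose the genes. At high pH 3 of the 189 genes were lower (1.59%) and 0 higher, against 0.483% and 0.322% of all genes tested, and 62 were lower and 18 higher at an unadjusted limma p under 0.05, together 42.3% of the 189 against 22.8% of all genes tested. The median log2 change was -0.16, against -0.08 over all genes tested and -0.07 over the genes that met the rest of the rule. Mv15959-RA had 12.6 and 13.1 FPKM at low pH against 4.98 and 5.38 FPKM at high pH, a log2 change of -1.29 (SE 0.109, adjusted p = 2.52e-05). Mv25582-RA had 9.30 and 9.54 FPKM at low pH against 4.44 and 3.63 FPKM at high pH, a log2 change of -1.21 (SE 0.144, adjusted p = 0.000339). Mv15970-RA had 10.7 and 11.6 FPKM at low pH against 4.87 and 5.86 FPKM at high pH, a log2 change of -1.04 (SE 0.170, adjusted p = 0.00294). The groups did not overlap in the 3 genes, but the call of Mv15970-RA was lost in 8 of 15 alternatives, among them leaving out high pH replicate 1 (-0.91), low pH replicate 1 (-1.10) or low pH replicate 2 (-0.98). Mv15959-RA and Mv25582-RA had levels at low pH near or above their untreated means of 11.996 and 7.69 FPKM, so for them high pH, darkness and high temperature were low and low pH was not. Mv15959-RA had a log2 change of -1.20 at high temperature, which became 0.10 with quantile normalization, and that of Mv15970-RA, -1.58, became 0.22.

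The calls at high temperature and at the shifted pH values overlapped in part. These combinations were not counted over all genes tested. Taken singly, falls were called in 55.3% of all genes tested at high temperature, 0.902% at low pH and 1.46% at high pH. Fell at high temperature and called in neither pH comparison with Control 2 were 132 genes, and 34 were called in none of the 3. Rises at high temperature with no pH call numbered 9. Falls were called at high temperature and high pH, with no call at low pH, in 8 genes, and in all 3 comparisons in 2 (Mv21724-RA and Mv20761-RA). Mv08523-RA and Mv16345-RA were called at high temperature and low pH, and their high pH changes of -0.99 (adjusted p = 0.000503) and -0.97 (adjusted p = 4.46e-06) missed only the 2-fold threshold. Between high and low pH these changes differed by 0.11 and 0.03 (adjusted p = 0.726 and 0.855). Mv06567-RA alone fell at high temperature and rose at both shifted pH values, and Mv21880-RA alone rose at high temperature and at high pH.

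The 8 genes that met the numbers but were set aside have names from homologs, mostly of Arabidopsis. From the cell division and cell wall list came homologs of the AURORA kinases AUR1 and AUR2, which act on the mitotic spindle, of the cyclin-dependent kinases CDKA;1 and CDKB, which drive the cell cycle, of the kinesins ATK1 and ATK5, which are spindle motors, and of MUS, a receptor-like kinase. The CDKA;1 and CDKB homolog Mv23038-RA had 60.7 FPKM in Control 1, 41.4 and 44.3 FPKM in Control 2, and 23.3 and 23.4 FPKM in darkness, with 3.001 and 4.83 FPKM at high temperature. The AURORA homolog Mv02252-RA had 7.42 to 9.05 FPKM in untreated cells and 3.98 and 3.59 FPKM in darkness, and the kinesin homolog Mv22247-RA had 17.1 to 21.4 FPKM and 9.55 and 9.79 FPKM. The MUS homolog Mv15998-RA had 4.55 to 6.001 FPKM in untreated cells and 2.53 and 2.60 FPKM in darkness. In all 4 the darkness libraries lay below every untreated library.

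Of the epigenetic list, the homolog of NUC-L1 (Mv02515-RA), a nucleolin of ribosomal RNA gene regulation, had 51.1 to 55.3 FPKM in untreated cells and 16.2 and 16.8 FPKM in darkness, and the homolog of FVE (Mv08890-RA) had 3.67 to 3.92 FPKM in untreated cells and 0 and 2.68 FPKM in darkness. The FVE homolog was also listed at 0 in libraries of 4 other conditions, so its darkness mean is not a steady measurement. From the transcription factor list, the B-box (BBX) gene Mv15449-RA had 21.0 to 23.1 FPKM in untreated cells and 9.69 and 10.1 FPKM in darkness. The R2R3-MYB gene Mv11642-RA had 18.6 to 25.1 FPKM in untreated cells, 5.73 and 5.99 FPKM in darkness, and 41.6 and 29.0 FPKM at high temperature. In cold, at high temperature and under high light it was above every untreated library, and in darkness below them.

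By list, the numbers of the rule were met by 4 of 148 cell division and cell wall genes at 1 FPKM or more, 2 of 106 transcription factors, 2 of 45 epigenetic genes, 0 of 14 phytohormone genes and 0 of 11 photosynthesis genes, against 197 of 12721 genes in all (1.55%). Of these transcription factors 3.77% were at least 2-fold below the mean of all untreated libraries in darkness, against 4.21% of these 12721 genes. In the limma test of darkness with Control 1, the contrast that also chose the genes, 4.02% of all genes tested were lower and 1.13% higher. The same test called lower 10 of 152 cell division and cell wall genes, 9 of 112 transcription factors, 7 of 45 epigenetic genes and 2 of 11 photosynthesis genes. It called higher 1 transcription factor and no gene of the other lists. At an unadjusted p under 0.05, 75 cell division and cell wall genes were lower and 6 higher, 30 transcription factors lower and 22 higher, 19 epigenetic genes lower and 3 higher, and 5 photosynthesis genes lower and 3 higher, against 26.5% lower and 11.5% higher of all genes tested. Of 14 phytohormone genes 0 were called, and 4 were lower and 1 higher at that threshold.

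Genes lay close on both sides of each threshold. In darkness Mv02235-RA and Mv15051-RA were the last inside, at log2 ratios of -1.0006 and -1.0027, and Mv17066-RA and Mv15767-RA the first outside, at -0.99997 and -0.9987. The lowest untreated means inside were those of Mv09136-RA (1.07 FPKM) and Mv01554-RA (1.16 FPKM), and the nearest outside were those of Mv07579-RA (0.827 FPKM) and Mv26422-RA (0.818 FPKM). For the spread of the untreated libraries, Mv00913-RA and Mv20707-RA (1.497- and 1.496-fold) were just inside and Mv07103-RA (1.5001-fold) and Mv09871-RA (1.506-fold) just outside. In cold Mv14236-RA (-0.98) and Mv21087-RA (0.98) were inside and Mv18300-RA (-1.02) and Mv26128-RA (-1.03) outside, and under high light Mv19047-RA (-0.96) and Mv19682-RA (0.92) were inside and Mv06882-RA (1.06) and Mv21288-RA (-1.13) outside. The largest loss of candidates was at the controls: 536 genes at 1 FPKM or more were at least 2-fold lower in darkness, and 230 of them did not have untreated libraries within 1.5-fold of each other.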

How the data were processed

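The data were 15 RNA-seq libraries of *M. viride*. The authors mapped reads with HISAT2 and computed FPKM per gene with Cufflinks, and these deposited FPKM values, with no further scaling by the authors named in the sources used here, were the input. No value above 0 was whole, so counts and depth are unknown. Library values with 0.1 added were log2 transformed, and the 14297 genes that reached 0.5 FPKM in 2 or more libraries were fitted with limma (version 3.58.1, R 4.3.3). The model had 1 mean per condition, leaving 7 residual degrees of freedom, and let the variance prior follow mean expression. Because 0.1 was added, fold changes of low genes are understated. Benjamini-Hochberg adjustment ran over all genes tested. The procedure was tested on simulated data. All 189 members passed the filter. The members, lists and tests were chosen with earlier results of these data known. Named genes were the 10 members lowest in darkness, the 10 most abundant, those with functional terms, the 3 largest rises and falls among the calls of each test, the 2 nearest to each threshold on either side, and the genes dropped as listed. Other members were named after their values were seen: those whose replicates disagreed, the near-identical pairs, the remaining risers at high temperature, the fourth fall at low pH and 3 falls among the members near the untreated level. Alternatives were other added values, filters, scalings, references, a fit to the compared groups, an FDR of 0.05, a replicate block and leaving out each library. Gene positions and sequences were not used here.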

Additional observations from a re-analysis of the deposited data

How the results depend on the processing

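The number of darkness-reduced genes was 136 and 199 with 1 and 0.01 added in place of 0.1, and 129, 183, 212 and 268 with upper quartile scaling, quantile normalization, the median of gene ratios and equal totals, sharing 124, 149, 158 and 179 genes with the 189. Leaving out each library that the rule uses in turn gave 186 to 274 genes, the highest without Control 1 replicate 2. High temperature gave 155 calls among the 189 genes, and 103 with quantile normalization, whose construction gives every library the same distribution. Leaving out each high temperature library gave 151 and 156. Control 1 could not be left out of that test. Control 2 as the reference gave 155 calls, with 147 falls and 8 rises against 145 and 10 with Control 1. The low pH and high pH libraries as the reference, chosen after seeing the data, gave 142 falls and 8 rises. At high pH the 10 falls became 6 with 1 added or quantile normalization and 5 with upper quartile scaling or the median of gene ratios. Falls over all genes were not counted under these settings. For the named genes 633 values under alternatives kept their side of the threshold and 51 fell short of it with the same sign. At high temperature 3 changed sign: Mv06567-RA became 0.0898 with the median of gene ratios, and Mv15959-RA and Mv15970-RA became 0.10 and 0.22 with quantile normalization.

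Replicate numbers did not pair the libraries: over 21 pairs of groups the correlation of deviations with the same number was -0.08 to 0.07. With the replicate block, 144 genes fell and 10 rose at high temperature, and the calls at low pH, high pH and high against low pH were 5, 12 and 3, as without it.

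Depth limits cannot be stated for FPKM. Control 1 rests on 1 library, and the high temperature replicates differed most, by a median of 0.199 on the log2 scale over the members.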

Other observations

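Outside the darkness-reduced genes, 10 of 152 cell division and cell wall genes (6.58%) were called lower in darkness than in Control 1. Of all genes tested 4.02% were called lower. The shares were higher for transcription factors (8.04%), epigenetic genes (15.6%) and photosynthesis genes (18.2%), and 0 for phytohormone genes. Against the mean of all untreated libraries the order differed for transcription factors. At 1 FPKM or more, 3.77% of them were at least 2-fold lower in darkness, against 4.21% of all genes. By that measure the shares were 5.41% of cell division and cell wall genes, 13.3% of epigenetic genes and 18.2% of photosynthesis genes. Homologs of tubulins, a cyclin, mitotic kinases and spindle factors were among the 10. This group was described after its values were seen, and the single Control 1 library was taken to vary as the replicates of the other conditions do. The largest change was that of Mv09173-RA, a homolog of the DNA methyltransferases CMT3 and MET1, with a log2 change of -2.49 (SE 0.179, limma adjusted p = 2.32e-06). The tubulin homologs Mv21576-RA (alpha or beta tubulin) and Mv12488-RA (gamma tubulin, which nucleates microtubules) changed by -1.91 and -1.28, and the A-type cyclin homolog Mv18326-RA (CYCA1;1) by -1.60. Homologs of the spindle assembly factor TPX2 (Mv17915-RA), of the microtubule-associated EDE1 and AUG8 (Mv22981-RA), of the nuclear envelope proteins SUN1 and SUN2 (Mv06844-RA) and of a myosin (Mv10427-RA) changed by -1.08, -1.04, -1.27 and -1.25. The remaining homologs, of AURORA and of cyclin-dependent kinases, met the numbers of the rule on these libraries and changed by -1.24 and -1.38. The cyclin-dependent kinase homolog had 60.7 FPKM in Control 1, above the 41.4 and 44.3 FPKM in Control 2. Against the mean of all untreated libraries the log2 ratios of these homologs in darkness were -1.12 and -1.06. Mv09173-RA also stands in the epigenetic list, so it counts in both shares. The median of the cell division and cell wall list was -0.32, against -0.10 over all genes tested.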
